A study of Mus musculus with 10 samples.

Results

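The genes described here are 37 components of the heat shock response and the unfolded protein response, taken by symbol from a table of read counts for 19999 genes of mouse retina. All 37 were found in the table, and all passed the filter on low counts with at least 59 reads in every library, so none was left out of the 16852 genes tested. They were followed across 10 RNA-seq libraries of BALB/c mice, an albino strain whose retina is sensitive to bright light. Of these, 5 libraries came from retinas of a light-induced damage model and 5 from control retinas. The study's stated aim was the protective action of A74 on the retina, and no library used here carries that label. Library names of both groups contain the word vehicle, whose composition is not given in the labels. Neither how bright and long the light was, nor when retinas were taken, nor the animals' age and sex is given. The labels do not state that libraries of a group came from separate animals, and p-values therefore measure the spread between these libraries, which may in part be technical.

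Cells answer misfolded protein in the cytosol with the heat shock response, in which the transcription factor HSF1 switches on chaperones such as the inducible HSP70 proteins. Many chaperones also have constitutive forms that fold newly made proteins in unstressed cells. In the endoplasmic reticulum (ER), the sensors IRE1 (gene Ern1), ATF6 and PERK (gene Eif2ak3) start the unfolded protein response, which raises ER chaperones and, through PERK and ATF4, genes for amino acid supply. Photoreceptors make and renew large amounts of membrane protein in their outer segments, and misfolded rhodopsin is a known trigger of ER stress in the retina.

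Library totals lay between 17900227 and 20337329 reads in light damage and between 14652535 and 20699236 in control. Levels below are CPM, read counts scaled to a common library size after TMM normalisation. Light damage replicates 1 and 2 stood apart. They had 17174 and 20414 reads of Xist, a non-coding RNA of female cells that acts in X inactivation, against at most 9 in each of the other 8 libraries. They also carried lens RNA, with 4015 and 7520 CPM as the low and high sums over 9 tested lens markers, against 21.4 to 118 CPM in the other light damage libraries and 3.28 to 31.4 CPM in control. Rod markers were abundant in every library, with sums of 12 genes between 63699 and 89357 CPM in light damage and between 68611 and 111312 CPM in control. Log2 fold changes were negative for 9 of the 12 rod markers, with a median of -0.13, and for 7 of 9 cone markers. Summed levels of 12 Müller glia markers ranged from 5761 to 8065 CPM in light damage and from 4375 to 5840 CPM in control, and 5 of the 12 rose. Of 10 bipolar cell markers 6 rose, with sums of 1314 to 1527 CPM against 1111 to 1400 CPM. Of 9 amacrine cell markers 2 rose, with sums of 1453 to 1581 CPM against 1225 to 1421 CPM. Of 9 microglia markers 1 rose, with sums of 80.1 to 154 CPM against 60.4 to 83.3 CPM. Calls were 1 higher of 12 for rods, 1 lower of 9 for cones and 3 higher of 9 for lens. No ganglion cell, pigment epithelium and ciliary body, endothelium or blood marker was called by edgeR. Over all genes tested, 5.32% were called higher and 7.85% lower. None of the tested markers was at 0 in all libraries. In whole retina, fewer cells of a type and less RNA per cell cannot be told apart, and the part of these markers in the results below was not tested.

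Of the 37 genes, 8 rose at an adjusted p under 0.05 in the quasi-likelihood test of edgeR. They were Hspa8, Hsp90ab1, Hsph1 and Dnaja1 of the cytosol, Hspe1 of mitochondria, and Herpud1, Dnajb9 and Pdia6 of the ER. This is 21.6% of the list, against 5.32% of all genes tested. None fell at that threshold by edgeR, where 7.85% of all genes did. At an unadjusted p under 0.05, 15 of the 37 were higher, where 14.0% of all genes were, and 3 were lower, where 16.3% were. DESeq2 called 12 higher and 1 lower, where it called 1297 higher and 1590 lower of the 16852 genes tested. For limma-voom it was 7 higher and 0 lower, where 804 and 1205 of all genes were. The median log2 fold change over the 37 genes was 0.12, against 0.0016 over all genes tested, and 27 of the 37 values were positive, or 73%, against 50.3% of all genes. In 4 genes, Hsp90ab1, Hsph1, Hspe1 and Dnajb9, every light damage library lay above every control library. That is 10.8% of the list, against 4.31% of all genes, and no gene of the list lay wholly below control, against 5.48% of all genes.

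Leaving out libraries moved the calls. Without light damage replicates 1 and 2, the median over the 37 genes was 0.13 and 31 of the 37 had the same sign as before. None of the 8 genes was called in that comparison of 3 against 5 libraries, where 0.782% of all genes were called higher and 1.55% lower. Chac1 was the single gene of the 37 called there, as higher, and 0 were lower by edgeR. At an unadjusted p under 0.05, 13 were higher and 1 lower. The share of all genes at that threshold was not counted there, so these counts cannot be set against it. With single libraries left out, the number of genes that rose lay between 3 and 12, where between 399 and 1347 of all genes were called higher. It was 3 without light damage replicate 3, 4 without light damage replicate 2 or control replicate 5, and 5 without light damage replicate 1, control replicate 2 or control replicate 4. With a lens score as a covariate, edgeR called 1 gene of the whole table higher and 7 lower, so that 0 of the 37 carries no information on them. At an unadjusted p under 0.05, 7 of the 37 were higher and 0 lower, again without a counted share of all genes.

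**Figure D1:**
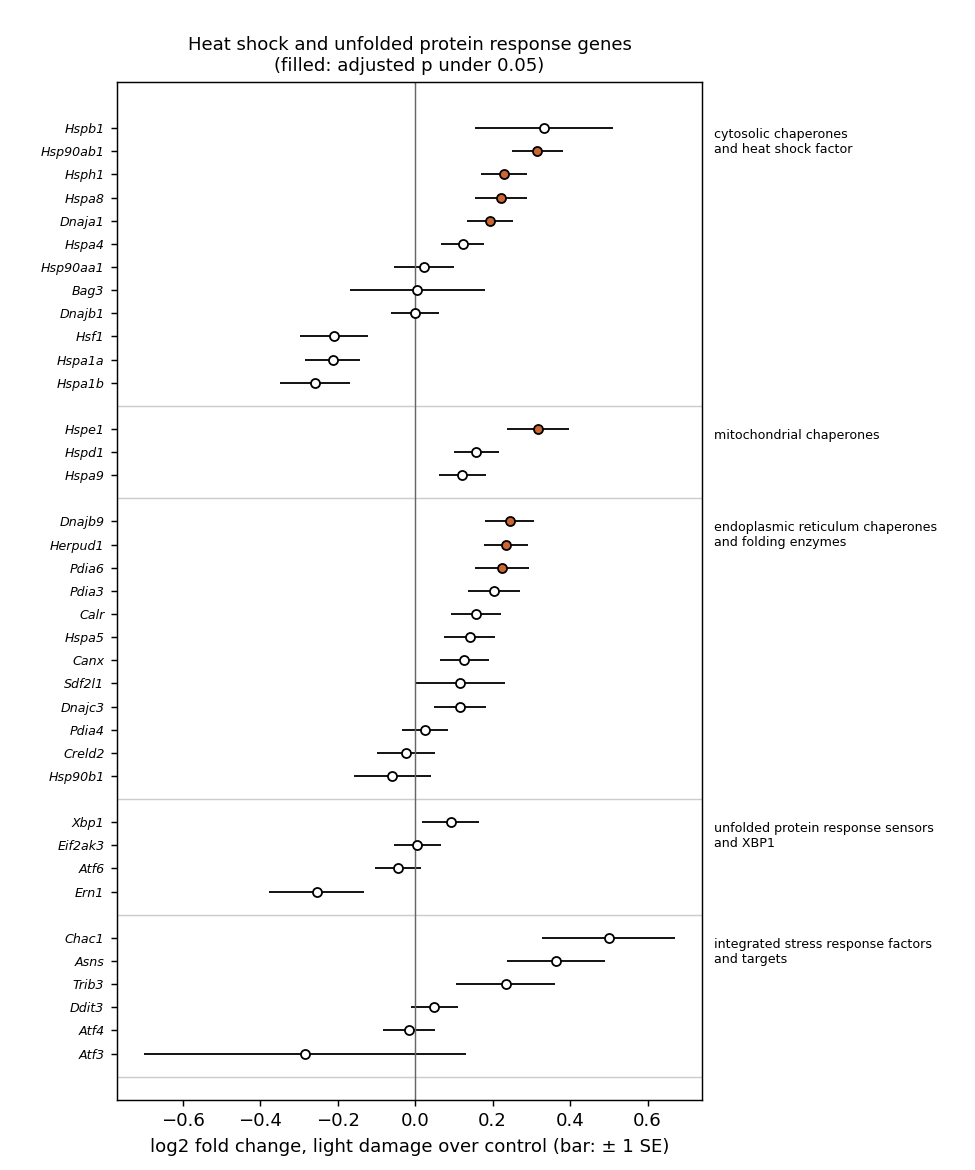
Log2 fold change of light damage over control for the 37 genes, by role (horizontal axis; points are edgeR estimates, bars are ± 1 SE, filled points passed an adjusted p under 0.05). The 8 filled points lie between 0.19 and 0.32, in the cytosolic, mitochondrial and ER chaperone groups.

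The cytosolic group holds 12 genes, of which 4 rose and 8 did not pass the test, where 5.32% of all genes rose and 7.85% fell. Per kilobase of the longest annotated transcript, Hsp90aa1 had the highest control level of all 37 genes, 522 ± 54.7 CPM per kb (SD, n = 5), followed by Hspa8 with 319 ± 16.8 and Hsp90ab1 with 241 ± 18.4. The inducible Hspa1a and Hspa1b stood at 14.4 ± 0.966 and 17.9 ± 2.83 CPM per kb. Control retina held far more RNA of constitutive HSP70 (Hspa8) than of the inducible pair.

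Hsp90ab1 encodes HSP90 beta, the constitutive cytosolic HSP90. It stood at 804, 754, 790, 713 and 723 CPM in light damage replicates 1 to 5, against 685, 615, 569, 577 and 594 in control replicates 1 to 5. All light damage libraries lay above all controls, the closest being light damage replicate 4 and control replicate 1. The means were 757 ± 40.0 and 608 ± 46.4 CPM (SD, n = 5 each), and Hsp90ab1 rose (log2 fold change 0.32, SE 0.066, edgeR adjusted p = 0.00762). The call held in all 10 fits that each lacked 1 library. In the 8 libraries low in Xist the value was 0.29 (edgeR adjusted p = 0.0832).

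Hspa8 encodes HSC70, the constitutive HSP70. In order of replicate, it stood at 1198, 1192, 1273, 1062 and 1144 CPM with light damage, against 1091, 1015, 1005, 955 and 968 in controls. Light damage replicate 4 fell under control replicate 1, and the other 4 light damage libraries lay above all controls. Hspa8 rose (log2 fold change 0.22, SE 0.067, edgeR adjusted p = 0.0377). Leaving out single libraries ended the call in 7 of 10 cases, at adjusted p between 0.0520 and 0.0971 by edgeR, the latter without light damage replicate 3. The call stayed without control replicate 1, light damage replicate 4 or light damage replicate 5.

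Hsph1 encodes HSP110, a nucleotide exchange factor that resets HSP70. It measured 74.7, 75.3, 82.7, 75.6 and 76.4 CPM with light damage, against 70.5, 68.4, 67.7, 61.8 and 59.3 in controls. The groups did not overlap, and light damage replicate 3 was the highest library. Hsph1 rose (log2 fold change 0.23, SE 0.059, edgeR adjusted p = 0.0192), and without light damage replicate 3 the adjusted p was 0.0580 by edgeR. Dnaja1, a J-domain cochaperone that delivers clients to HSP70, measured 209, 194, 205, 192 and 183 CPM with light damage, against 184, 175, 178, 157 and 165 in controls. Light damage replicate 5 fell just under control replicate 1, and the other 4 light damage libraries lay above all controls. Dnaja1 rose (log2 fold change 0.19, SE 0.060, edgeR adjusted p = 0.0414). Its call also ended in 7 of 10 cases, with an adjusted p up to 0.115 by edgeR without light damage replicate 1. It stayed without control replicate 1, control replicate 3 or light damage replicate 5.

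**Figure D2:**
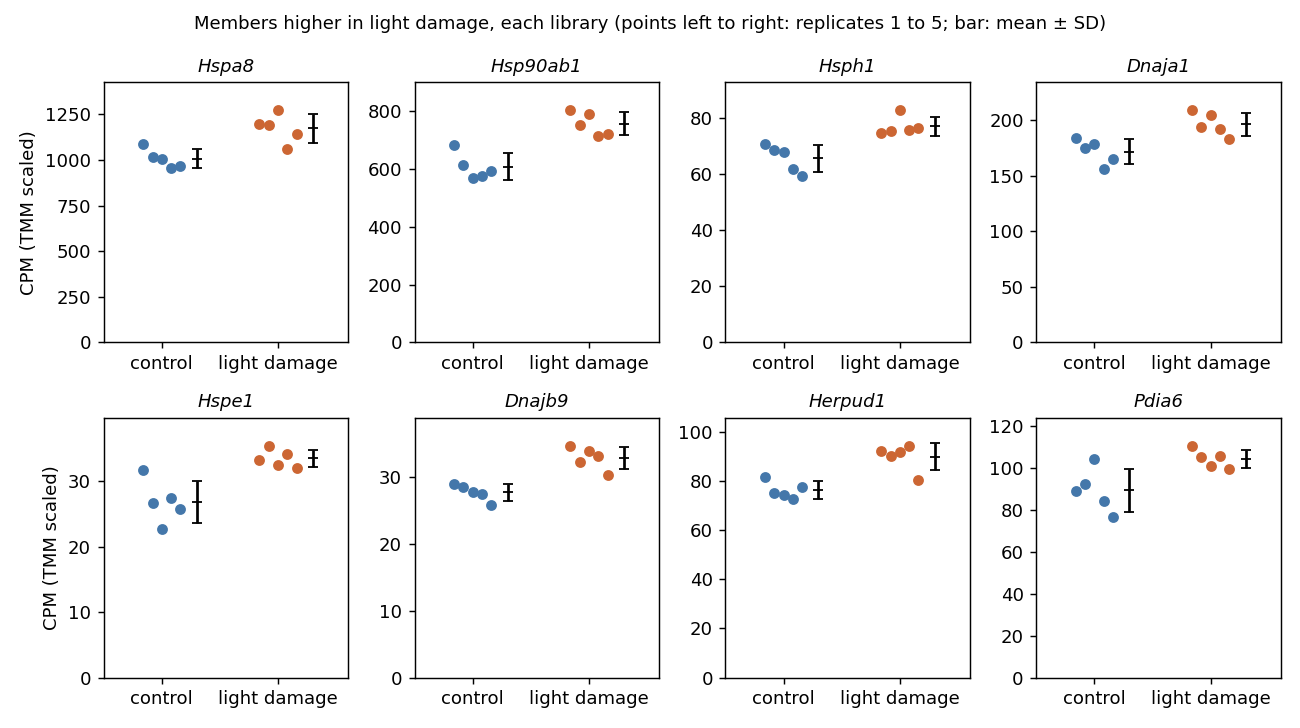
CPM (vertical axis, starting at 0) in each control and light damage library for the 8 genes that rose; points are replicates 1 to 5 from left to right, and bars show the mean ± SD of 5 libraries. In Hsp90ab1, Hsph1, Hspe1 and Dnajb9 the groups do not overlap, and in every panel the shift is small beside the level.

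Hspa1a and Hspa1b encode the stress-inducible HSP70 proteins and are near copies of each other, which limits how reads can be divided between them. Their coding sequences, 1923 and 1926 bases in GENCODE M21, differ at 8 of 1923 aligned bases and are 99.6% identical. The 250 bases upstream of their start sites differ at 3 positions. The stretch with 2 of these differences is shown to make the likeness of the pair visible, in the RefSeq promoters of GRCm38.p6, with differing bases in capitals. Both are on the minus strand, and the stretches are chr17:34972287-34972376 for Hspa1a and chr17:34959369-34959458 for Hspa1b.
Hspa1a: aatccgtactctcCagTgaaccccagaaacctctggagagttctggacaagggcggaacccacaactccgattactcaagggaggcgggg
Hspa1b: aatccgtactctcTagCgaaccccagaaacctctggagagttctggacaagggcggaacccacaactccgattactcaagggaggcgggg

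Hspa1a measured 37.2, 32.0, 36.8, 38.0 and 41.0 CPM with light damage, against 43.8, 40.4, 45.4, 45.4 and 39.3 in controls. Light damage replicate 5 lay within the control range and the other light damage libraries lay below it. Hspa1b measured 41.5, 41.2, 38.6, 42.7 and 45.3 CPM with light damage, against 44.5, 42.5, 62.9, 50.5 and 49.8 in controls, with control replicate 3 the highest. Neither passed by edgeR, with log2 fold changes of -0.21 (SE 0.072) and -0.26 (SE 0.090) and edgeR adjusted p of 0.0602 and 0.0668. DESeq2 called Hspa1a lower (adjusted p = 0.0395), and so did edgeR without light damage replicate 5 (adjusted p = 0.0347). Hspa1b was called lower by edgeR without control replicate 1 (adjusted p = 0.0363) or control replicate 2 (adjusted p = 0.0336), and its log2 fold change was -0.16 without control replicate 3. Because reads of the pair may be split arbitrarily, their counts were also summed, a choice made after the values were seen. The sum averaged 78.9 ± 5.05 CPM with light damage and 92.9 ± 9.77 CPM without it (SD, n = 5 each). It fell by 0.24 on the log2 scale (SE 0.070, edgeR adjusted p = 0.0366 over all genes). Leaving out single libraries ended this call in 7 of 10 cases, with an edgeR adjusted p up to 0.0968 without light damage replicate 2, and it stayed without control replicate 1, control replicate 2 or light damage replicate 5. Without light damage replicates 1 and 2 the sum differed by -0.20 on that scale, with an adjusted p of 0.214 by edgeR.

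The other 6 genes of the cytosolic group did not pass by edgeR with all libraries. Hsp90aa1, the inducible HSP90 alpha, averaged 1740 ± 82.3 CPM with light damage and 1713 ± 180 CPM in controls (SD, n = 5 each), with a log2 fold change of 0.022. Dnajb1, the HSP40 most readily induced by heat, averaged 77.1 ± 2.62 and 77.1 ± 6.89 CPM. Bag3, a cochaperone of selective autophagy, averaged 8.16 ± 1.09 and 8.11 ± 2.45 CPM, with controls from 5.33 to 12.0 CPM. Hsf1 itself averaged 50.9 ± 4.25 and 58.8 ± 8.38 CPM (log2 fold change -0.21, SE 0.089, edgeR adjusted p = 0.125), and was called lower without control replicate 2, at -0.28 (edgeR adjusted p = 0.0337). Hspa4, another HSP110-type exchange factor, differed by 0.12 on the log2 scale (edgeR adjusted p = 0.155). The small heat shock protein gene Hspb1 measured 5.65, 8.58, 5.58, 5.54 and 4.06 CPM with light damage, against 5.23, 3.79, 5.37, 4.12 and 4.80 in controls. Light damage replicate 2, which carried much lens RNA, was its highest library. Light damage replicate 1 carried more (lens marker Cryaa at 3839 against 2084 CPM), and its Hspb1 level was close to those of replicates 3 and 4. A part of lens RNA in the Hspb1 level was not tested. The log2 fold change of Hspb1 was 0.33 (SE 0.18) with all libraries and 0.12 without light damage replicates 1 and 2.

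A ratio of counts within each library does not depend on how libraries are scaled to each other, and the ratios given here were chosen after the values were seen. Reads of constitutive Hspa8 over those of Hspa1a plus Hspa1b gave 15.2, 16.3, 16.9, 13.2 and 13.3 in light damage and 12.3, 12.2, 9.28, 9.95 and 10.9 in control. Reads of Hsp90ab1 over Hsp90aa1 gave 0.446, 0.443, 0.490, 0.399 and 0.402 in light damage and 0.353, 0.341, 0.374, 0.329 and 0.385 in control. In both pairs of paralogs the balance lay further towards the constitutive gene in each light damage library than in any control. This restates values already given, and how often other gene pairs separate in this way was not counted.

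**Figure D3:**
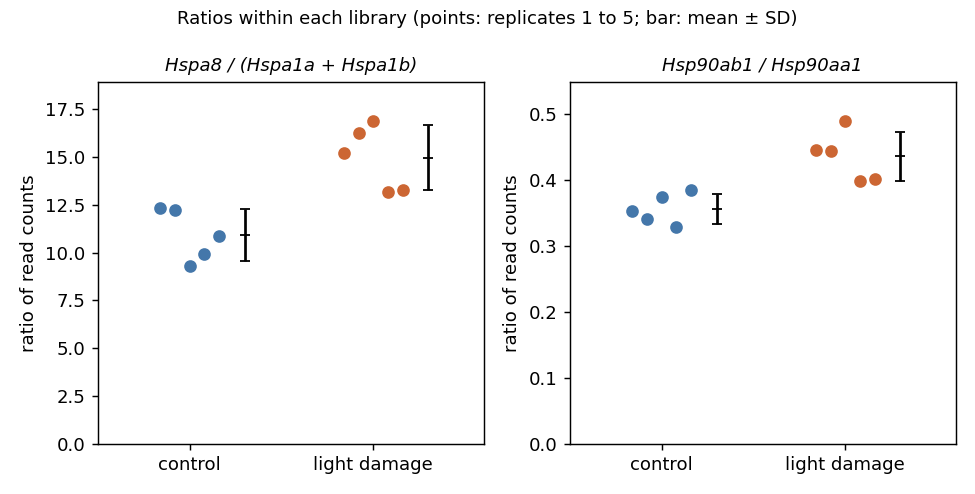
Ratio of read counts within each library (vertical axes, starting at 0) for Hspa8 over Hspa1a plus Hspa1b (left) and Hsp90ab1 over Hsp90aa1 (right); points are libraries and bars show the mean ± SD of 5. The lowest light damage ratios, 13.2 and 0.399, lie above the highest control ratios, 12.3 and 0.385.

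In mitochondria, protein folding relies on mortalin (Hspa9) and on the chaperonin HSP60 (Hspd1) with its lid HSP10 (Hspe1). Of these 3 genes, Hspe1 rose by edgeR, where 5.32% of all genes did. Hspe1 measured 33.3, 35.5, 32.6, 34.2 and 32.0 CPM with light damage, against 31.7, 26.6, 22.7, 27.5 and 25.8 in controls. The groups did not overlap, control replicate 1 was the closest to light damage, and Hspe1 rose (log2 fold change 0.32, SE 0.080, edgeR adjusted p = 0.0172). Without light damage replicate 2 the edgeR adjusted p was 0.0508. Hspd1 measured 132, 131, 130, 131 and 127 CPM with light damage, against 134, 114, 112, 109 and 115 in controls. Control replicate 1 lay above all light damage libraries and the other controls lay below them, and Hspd1 was not called by edgeR (log2 fold change 0.16, SE 0.059, edgeR adjusted p = 0.0819). DESeq2 called Hspd1 higher (adjusted p = 0.0472), as did edgeR with library totals alone (adjusted p = 0.0473). Without control replicate 1 its value was 0.22 (edgeR adjusted p = 0.00793). Hspa9 measured 182, 171, 189, 186 and 186 CPM with light damage, against 180, 174, 179, 153 and 156 in controls. Its groups overlapped (log2 fold change 0.12, SE 0.060, edgeR adjusted p = 0.183).

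Hspe1 and Hspd1 lie head to head and share the DNA between them. Their gene models overlap by 112 bases on opposite strands in GENCODE M21, so reads of that stretch can be assigned with certainty only if the libraries mark strand, which is not stated. A stretch upstream of both RefSeq start sites is shown because it holds a match to the heat shock element, the sequence bound by HSF1. Whether the 112 overlapping bases fall in this stretch was not examined. The element was searched on both strands as 3 units of GAA, alternately inverted and 2 bases apart. A pair of overlapping matches, 2 in all, lies 89 to 72 bases upstream of the Hspe1 start site. Capitals mark them on the plus strand of chr1:55088029-55088106 in the RefSeq promoters of GRCm38.p6.
Hspe1: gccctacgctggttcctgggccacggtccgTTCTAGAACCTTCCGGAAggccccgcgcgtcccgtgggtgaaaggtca

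Of the 37 genes, 31 had a promoter in that RefSeq table, in 36 windows of 300 bases around annotated start sites. Hspa8, Hsp90aa1, Hsp90ab1, Hsf1, Hspa9 and Atf6 had no entry there and were not searched. Hspe1, Hspd1 and Hsph1 held a heat shock element in this form, in 4 of the 36 windows, against 0.603% of all 32851 promoter windows. Hspe1 and Hspd1 hold the same site. In Hsph1 the match lies just downstream of the start site. Hspa1a, Hspa1b and Dnajb1 held no match to these exact letters in their windows. A match of letters is a description and does not show that a factor was bound.

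The ER group holds 12 chaperones and folding enzymes. Of these, 3 rose, where 5.32% of all genes did, 9 did not pass, and the median log2 fold change was 0.13. Herpud1, a component of ER-associated degradation, measured 92.2, 90.0, 91.7, 94.3 and 80.4 CPM with light damage, against 81.6, 75.2, 74.3, 72.6 and 77.6 in controls. Light damage replicate 5 alone fell within the control range. Herpud1 rose (log2 fold change 0.23, SE 0.057, edgeR adjusted p = 0.0145), and its call was kept without any single library. Dnajb9, an ER cochaperone that restrains IRE1, measured 34.6, 32.1, 33.8, 33.0 and 30.2 CPM with light damage, against 28.9, 28.5, 27.7, 27.5 and 25.7 in controls. The groups did not overlap, and Dnajb9 rose (log2 fold change 0.24, SE 0.064, edgeR adjusted p = 0.0207). The edgeR adjusted p was 0.0604 without light damage replicate 1, 0.0546 when light damage replicate 3 was left out, and 0.0507 when control replicate 5 was.

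Pdia6, a protein disulfide isomerase, measured 111, 105, 101, 106 and 99.7 CPM with light damage, against 88.9, 92.2, 104, 84.3 and 76.5 in controls, where replicate 3 reached into the light damage range. Pdia6 rose (log2 fold change 0.22, SE 0.071, edgeR adjusted p = 0.0451). The call ended in 7 of 10 cases with a single library left out, up to an edgeR adjusted p of 0.116 without light damage replicate 1, and under limma-voom (adjusted p = 0.0534). It stayed without control replicate 1, control replicate 3 or light damage replicate 5. Pdia3, a disulfide isomerase of glycoproteins, lay just outside the threshold with 0.20 on the log2 scale (edgeR adjusted p = 0.0533). DESeq2 called it higher (adjusted p = 0.0235), as did edgeR without control replicate 1 (adjusted p = 0.0100).

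Hspa5, which encodes BiP, the central HSP70 of the ER, measured 246, 261, 273, 237 and 258 CPM with light damage, against 253, 228, 249, 213 and 212 in controls. The groups overlapped and Hspa5 was not called (log2 fold change 0.14, SE 0.065, edgeR adjusted p = 0.157). The lectin chaperones Calr and Canx, calreticulin and calnexin, differed by 0.16 and 0.13 on the log2 scale, and the ER-resident Dnajc3 and Sdf2l1 by 0.12 and 0.12. Pdia4, another disulfide isomerase, stood at 0.025 and Creld2, an ER stress-inducible protein, at -0.023. Hsp90b1, the HSP90 of the ER, was lowest in this group at -0.059 (SE 0.099). It measured 270, 269, 261, 337 and 311 CPM with light damage, against 318, 329, 348, 271 and 243 in controls. None of these 8 genes passed the test by edgeR. Hspa5 and Calr, 2 of them, were higher at an unadjusted p under 0.05, where 14.0% of all genes were.

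The ER stress response element is the sequence through which ATF6 acts on ER chaperone promoters. It was searched on both strands as CCAAT and CCACG with 9 bases between them. Of the 36 windows of the listed genes 7 held it, against 0.119% of all promoter windows. They belonged to 7 of the 31 genes, Calr, Canx, Creld2, Dnajc3, Hsp90b1, Hspa5 and Pdia6. Of these 7, Pdia6 rose and the others were not called, where 5.32% of all genes tested rose. Element II, searched as ATTGG and CCACG with 1 base between them, was found in Herpud1, in 1 of the 36 windows. It was found in 0.0365% of all windows. TGATGCAA, the core of the element used by ATF4, was found in Herpud1, Atf3 and Chac1, in 3 of the 36 windows. It was found in 0.895% of all windows. TGACGTGG, an element used by XBP1 and ATF6, was found in none of the 31 genes and in 0.676% of all windows. The stretches below set the promoters of the called genes Herpud1 and Pdia6 beside that of Hspa5, which was not called, with the matched letters in capitals. They are from GRCm38.p6, plus strand, at chr8:94386287-94386417 for Herpud1, chr12:17266461-17266539 for Pdia6 and chr2:34771995-34772073 for Hspa5. In Herpud1 the first match is the ATF4 element, on the opposite strand, and the other is element II.
Herpud1: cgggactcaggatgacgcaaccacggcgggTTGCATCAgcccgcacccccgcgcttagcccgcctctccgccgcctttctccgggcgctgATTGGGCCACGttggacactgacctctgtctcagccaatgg
Pdia6: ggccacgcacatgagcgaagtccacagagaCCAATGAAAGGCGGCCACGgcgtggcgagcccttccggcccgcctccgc
Hspa5: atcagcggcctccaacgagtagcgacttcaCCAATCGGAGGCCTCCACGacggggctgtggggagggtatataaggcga

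The sensors of the unfolded protein response and Xbp1, the transcription factor that IRE1 activates by splicing its RNA, showed no call with all libraries. At an unadjusted p under 0.05, 0 of these 4 genes were higher or lower by edgeR, where 14.0% and 16.3% of all genes were. DESeq2 and limma-voom called 0 of them. A count of 0 among 4 genes says little beside such shares. Ern1 measured 27.9, 30.8, 30.1, 31.1 and 30.2 CPM with light damage, against 25.4, 41.0, 40.2, 30.1 and 42.5 in controls. Its light damage libraries were close together, and its controls spread on both sides of them (log2 fold change -0.25, SE 0.12, edgeR adjusted p = 0.183). Without control replicate 1, its lowest control, Ern1 was called lower, at -0.35 (edgeR adjusted p = 0.0149). Xbp1 measured 82.2, 86.3, 86.1, 78.1 and 83.4 CPM with light damage, against 84.2, 74.3, 91.5, 73.1 and 67.2 in controls. Its controls spread more widely than its light damage libraries (log2 fold change 0.092, SE 0.073, edgeR adjusted p = 0.416). Atf6 averaged 93.8 ± 4.34 and 96.7 ± 7.44 CPM (SD, n = 5 each), and Eif2ak3 45.3 ± 1.75 and 45.1 ± 2.95 CPM. Counts per gene do not show the splicing of Xbp1 or the activity of these proteins.

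Of 6 genes of the integrated stress response, which includes the path from PERK through ATF4, 0 passed by edgeR. Of all genes, 5.32% were called higher and 7.85% lower. At an unadjusted p under 0.05, 2 of the 6 were higher, where 14.0% of all genes were. Chac1, which degrades glutathione and is a target of ATF4, had the largest log2 fold change of the 37 genes. It measured 4.59, 5.58, 8.23, 7.70 and 6.51 CPM with light damage, against 5.88, 3.86, 4.99, 4.0 and 4.25 in controls. Light damage replicates 3 to 5 lay above all controls, and replicates 1 and 2, the libraries high in Xist, lay within their range. Chac1 was not called with all libraries (log2 fold change 0.50, SE 0.17, edgeR adjusted p = 0.0632) and was called higher without those 2, at 0.70 (SE 0.17, edgeR adjusted p = 0.0461). Asns, asparagine synthetase, measured 49.8, 52.4, 57.0, 64.3 and 55.4 CPM with light damage, against 57.9, 35.4, 45.6, 41.3 and 36.1 in controls, where replicate 1 was far above the others. It was not called by edgeR (log2 fold change 0.36, SE 0.13, edgeR adjusted p = 0.0755), and was called higher without control replicate 1 (edgeR adjusted p = 0.00257). Chac1 was also called without control replicate 1 (edgeR adjusted p = 0.0258) or light damage replicate 1 (edgeR adjusted p = 0.0389). DESeq2 called both Chac1 (adjusted p = 0.0424) and Asns (adjusted p = 0.0211) higher.

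The other 4 genes of this group showed no call by edgeR with all libraries. Atf4, the central transcription factor of this response, averaged 262 ± 21.6 CPM with light damage and 264 ± 17.5 CPM in controls (SD, n = 5 each), and Ddit3, the death-associated factor CHOP, 47.3 ± 1.97 and 45.7 ± 2.97 CPM. Trib3, a pseudokinase induced by CHOP, did not pass (log2 fold change 0.23, SE 0.13, edgeR adjusted p = 0.227). Atf3, a factor induced early after injury, measured 5.65, 11.3, 13.2, 10.8 and 7.35 CPM with light damage, against 7.89, 12.2, 24.4, 6.34 and 7.81 in controls. Control replicate 3 held its highest value. Its log2 fold change was -0.28 (SE 0.42) with that library and 0.17 without it.

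**Figure D4:**
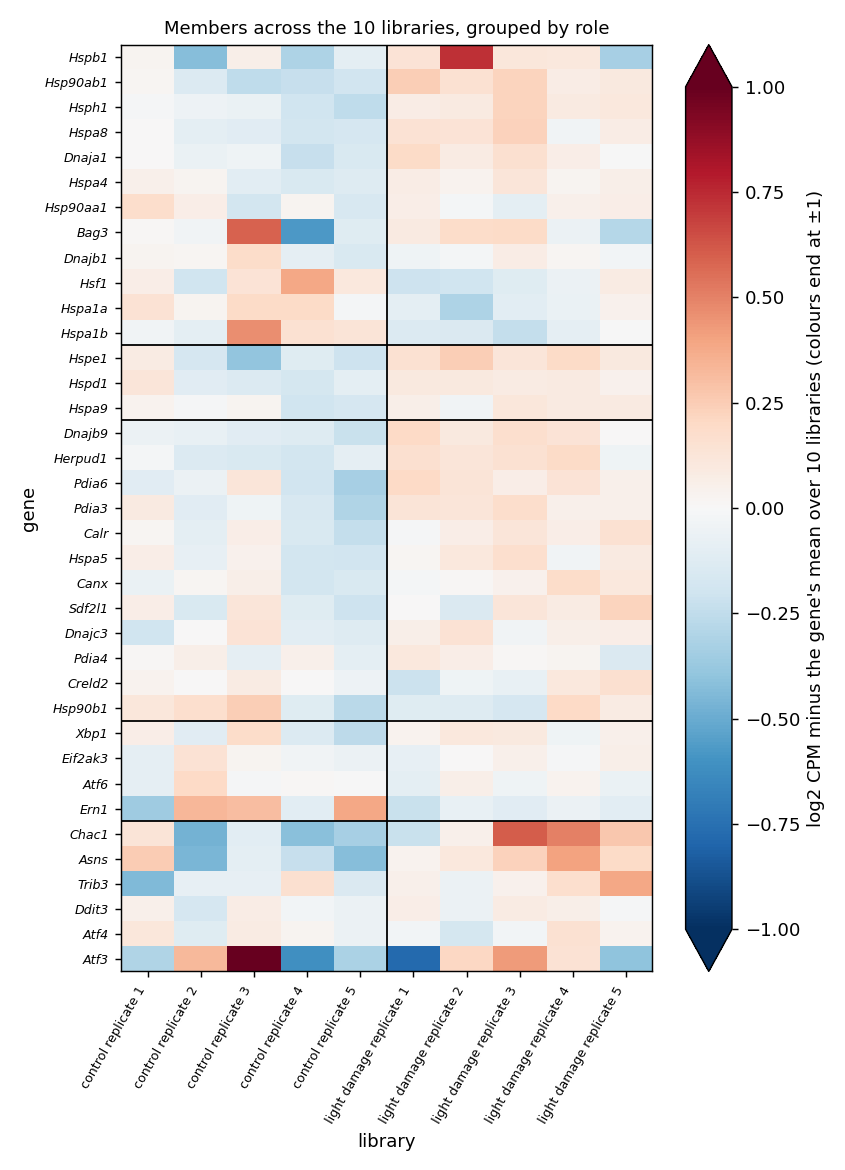
Log2 CPM of each of the 37 genes minus its mean over the 10 libraries (colour, ending at ±1; rows are genes by role, columns are libraries, lines separate roles and groups). Chac1 and Asns are highest in light damage replicates 3 to 5 and control replicate 1, and Atf3, Hspa1b and Bag3 are highest in control replicate 3.

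Genes of the same pathways outside the list were counted for comparison, where 5.32% of all genes were called higher and 7.85% lower by edgeR. Of 14 genes of the cytosolic chaperonin TRiC, which folds actin and tubulin, and of its partner prefoldin, 6 rose, 0 fell and the median log2 fold change was 0.19. They were Tcp1, Cct2, Cct3, Cct7 and Cct8 of TRiC and Pfdn2 of prefoldin, and of these Tcp1 lost its call in 7 and Cct2 in 3 of the 10 fits that each lacked 1 library. The 14 genes summed to between 1718 and 1833 CPM with light damage and between 1505 and 1686 CPM in controls. Cct8 averaged 183 ± 6.16 and 152 ± 7.34 CPM (SD, n = 5 each) (log2 fold change 0.27, SE 0.053, edgeR adjusted p = 0.00588). It was also called without light damage replicates 1 and 2 (edgeR adjusted p = 0.0421), the only 1 of the 14 that was. In that comparison 0.782% of all genes were called higher.

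Of 30 other cytosolic chaperones and cochaperones, 3 rose and 1 fell. Bag5, a regulator of HSP70, rose by 0.23 on the log2 scale, and Fkbp4, an HSP90 cochaperone, by 0.19. Hspa4l, an HSP110-type gene, fell by 0.20 on the log2 scale. Fkbp4 and Hspa4l each lost the call in 7 of the 10 fits that lacked 1 library. Of 12 genes of mitochondrial protein quality control 0 were called by edgeR. At an unadjusted p under 0.05, 2 of them were higher and 0 lower, where 14.0% and 16.3% of all genes were. Of 33 other genes of ER folding and ER-associated degradation, 2 rose and 1 fell. Derl1, a channel component of ER-associated degradation, rose by 0.24, and Ero1l, the oxidase that recharges disulfide isomerases, fell by 0.25 on the log2 scale, a call lost in 5 of those 10 fits. Without light damage replicates 1 and 2, edgeR called 0 genes of these cytosolic and ER lists. In that comparison 0.782% of all genes were called higher and 1.55% lower, so 0 calls say little about these lists. Of 32 other genes of the integrated stress response and amino acid supply, 3 rose and 0 fell. The share of all genes called by edgeR was 5.32% higher and 7.85% lower.

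**Figure D5:**
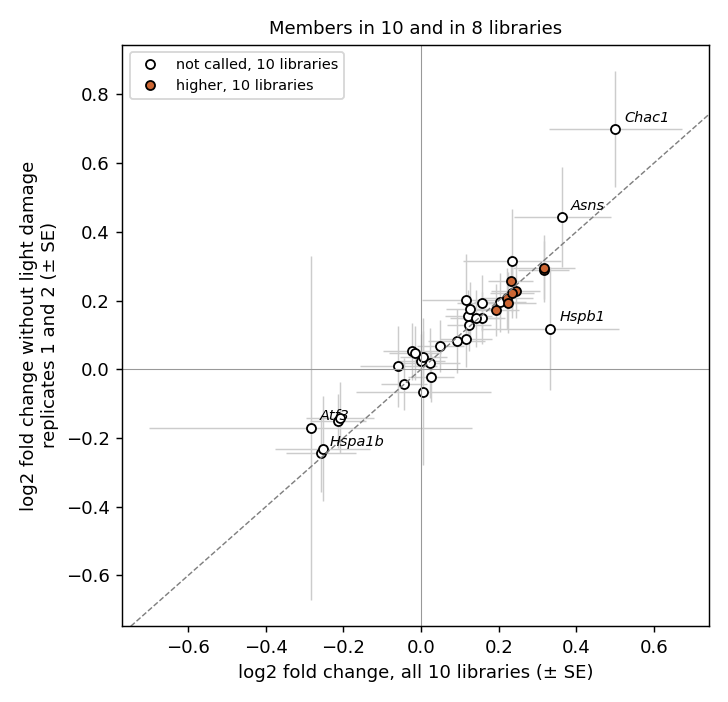
Log2 fold change of the 37 genes with all 10 libraries (horizontal) and without light damage replicates 1 and 2 (vertical), each ± SE; the dashed line marks equal values and filled points were called with all libraries. Most genes lie near the line, Chac1 moves from 0.50 to 0.70 and Hspb1 from 0.33 to 0.12.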

How the data were processed

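RNA of 10 mouse retina libraries was sequenced. The deposited file holds whole-number read counts per gene. Bowtie2, RSEM 1.3.1 and DESeq2 1.4.5, with build GRCm39, are listed in the submitters' processing notes with no roles, and no source used here says whether the deposited counts are rounded estimates. Strand handling is not stated. Ensembl identifiers were given symbols from GENCODE M21 (19892 of 19999 matched). Groups and replicate numbers came from the sample titles. Analysis used R 4.3.3, edgeR 4.0.16, limma 3.58.1, DESeq2 1.42.0, Python 3.11.15 and matplotlib 3.10.9. Genes kept by filterByExpr (16852) were scaled by TMM and tested with edgeR's robust quasi-likelihood test, group as the single term, Benjamini-Hochberg adjusted over all genes tested and called under 0.05. Standard errors were derived from the F statistic. Log2 CPM used a prior count of 2. The steps were tested on simulated data. No 2 libraries agreed within sampling noise. Levels per kb used the longest GENCODE M21 transcript.

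All 37 genes could be named. Values of every library were to be given for called genes and for the highest and lowest fold change of each role group, and at most the 2 called genes of lowest p were to be named per further list. Further library values, and the names Tcp1, Cct2, Cct7, Pfdn2, Hspa4l, Slc3a2, Phgdh and the uncalled genes beside it, were chosen after the values were seen. The genes and lists were chosen with earlier results of these data known. Alternatives were DESeq2, limma-voom, other scalings and filters, the replicate number as a block, leaving out libraries, and a lens score covariate. The summed Hspa1a and Hspa1b counts, with all and with single libraries left out, were added after seeing the data. Promoters came from RefSeq on GRCm38.p6, another build than that of the files.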

Additional observations from a re-analysis of the deposited data

Results flagged for a closer look

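Among the 74 sets of 5 libraries examined (37 genes in 2 groups), 2 held a library far from the other 4, where chance alone flags about 5% of such sets. Hsph1 had 82.7 CPM in light damage replicate 3, against 74.7 to 76.4 CPM in the other light damage libraries. Hspd1 had 133.7 CPM in control replicate 1, against 109 to 115 CPM in the other controls.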

How the results depend on the processing

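The number of genes called over the whole table, 896 higher and 1323 lower, was 399 to 1347 higher and 723 to 1644 lower with single libraries left out. It was 1431 higher and 1854 lower with the replicate block, and 135 higher and 268 lower without light damage replicates 1 and 2. With the lens score as a covariate it was 1 higher and 7 lower. With library totals alone it was 1147 higher and 912 lower, so that higher calls made up 55.7% of all calls. Of the 37 genes, 3 to 12 were called higher and 0 to 2 lower with single libraries left out. Without light damage replicates 1 and 2, 1 was higher. With the lens score as a covariate 0 were higher by edgeR. At an unadjusted p under 0.05, 7 were higher there, with no share of all genes counted. DESeq2 called 1 lower and the replicate block 2 lower, Hspa1a and Hsf1, and Hspd1 and Pdia3 higher besides the 8. Whether same-numbered libraries pair was not settled. Correlations of their deviations lay between 0.052 and 0.32, and 1 of 5 exceeded 0.1. Those of libraries with different numbers lay between -0.24 and 0.11. Of 10 libraries, 5 correlated best with their own number. The cause of these changes was not tested. The lowest count of any of the 37 genes was 59 reads in a library, in Hspb1, and counting error weighs most on such low genes. The median over the 37 genes kept its sign and moved by less than the spread between libraries throughout.

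Fold changes that changed sign belonged to genes without a call. Dnajb1 moved to 0.00023 with DESeq2, 0.0023 with limma-voom, 0.00072 with RLE size factors, 0.024 with library totals alone, 0.0093 with no filter, 0.0026 with the replicate block, 0.023 without light damage replicates 1 and 2, and 0.058 with the lens covariate. With library totals alone, Creld2 moved to 0.0035 and Atf4 to 0.011. Without light damage replicates 1 and 2, Bag3 had -0.066, Hsp90b1 0.0080, Creld2 0.053, Pdia4 -0.022 and Atf4 0.047. With the lens covariate, Hspb1 had -0.090, Bag3 -0.11, Hsp90b1 0.12, Creld2 0.14, Pdia4 -0.065, Atf3 0.19 and Atf4 0.072. With single libraries left out, Hsp90aa1 ranged from -0.018 to 0.076, Dnajb1 from -0.035 to 0.047, Bag3 from -0.10 to 0.20, Creld2 from -0.067 to 0.025, Atf6 from -0.067 to 0.0034, Eif2ak3 from -0.012 to 0.043, Atf3 from -0.43 to 0.17 and Atf4 from -0.057 to 0.025.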

Other observations

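Of the 32 other genes of the integrated stress response and amino acid supply, the 3 that rose, 9.38% against 5.32% of all genes, were Psat1, Slc7a5 and Slc3a2. Psat1, the aminotransferase of serine synthesis, measured 48.8, 47.5, 60.4, 54.0 and 54.0 CPM with light damage, against 39.6, 36.3, 42.7, 29.1 and 41.4 in controls, with no overlap between the groups. It rose (log2 fold change 0.48, SE 0.095, edgeR adjusted p = 0.00614), and by 0.57 (edgeR adjusted p = 0.0231) without light damage replicates 1 and 2. Slc7a5, the large neutral amino acid transporter, rose by 0.31 on the log2 scale, and by 0.38 without those libraries, with a call in both comparisons. Its partner chain Slc3a2 rose by 0.20 and was not called without them (edgeR adjusted p = 0.202), nor in 6 of the 10 fits that each lacked 1 library. Phgdh, the first enzyme of serine synthesis, was named after its values were seen. It measured 37, 26.4, 12.1, 13.1 and 10.6 CPM with light damage, against 9.20, 8.68, 7.38, 7.61 and 8.77 in controls. All light damage libraries lay above all controls, and replicates 1 and 2, which carried the most lens RNA, were the highest. Phgdh was not called with all libraries (log2 fold change 1.25, SE 0.38, edgeR adjusted p = 0.0627) and was called higher without those 2, at 0.52 (edgeR adjusted p = 0.0487). Of the other genes of serine and one-carbon metabolism and amino acid transport in the list, Psph, Shmt2, Mthfd2, Slc7a11, Slc7a3 and Slc38a2 were not called by edgeR, with log2 fold changes of 0.0016, 0.13, 0.27, 0.94, -0.29 and 0.082.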
